A study of Mus musculus with 12 samples.

Results

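The loss of the upstream regulatory element (URE) of Spi1 was compared between 2 stages of mouse blood formation by asking, at each open chromatin region, whether the genotype effect in granulocyte-monocyte progenitors (GMP) differed from that in stem and early progenitor cells (LSK). The comparison used all 12 ATAC-seq libraries of the series and all 121336 regions of the count table. The measure was the interaction, the log2 genotype effect in GMP minus the log2 genotype effect in LSK. A region was called when edgeR's quasi-likelihood test gave a Benjamini-Hochberg adjusted p under 0.05 over all regions and the log2 interaction exceeded 1 in size. A positive interaction means that the URE/WT ratio was larger in GMP than in LSK, and a negative one that it was smaller.

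Each of the 4 groups held 3 libraries. WT-LSK and WT-GMP came from wild-type mice, and URE-LSK and URE-GMP from mice homozygous for the deletion (genotype UREd/d in the labels). The mice were littermates on a C57BL/6 background, killed at 8 to 12 weeks of age. LSK are Lin- Sca-1+ c-Kit+ and GMP are Lin- Sca-1- c-Kit+ CD16/32+ bone marrow cells, both sorted by flow cytometry, and each library is described as 1 mouse. The deletion is in the germ line, so LSK and GMP of a URE mouse both carried it. Whether LSK and GMP libraries with the same number came from the same animal is not stated.

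PU.1, encoded by Spi1, is an ETS-family transcription factor that binds purine-rich GGAA elements and is needed for monocyte, macrophage and B cell development. The URE is a distal enhancer of Spi1 that PU.1 itself binds, and mice without it have reduced PU.1 and a high risk of acute myeloid leukaemia. LSK contain haematopoietic stem cells and multipotent progenitors, while GMP lie downstream and produce neutrophils and monocytes under PU.1 and C/EBP factors. ATAC-seq cuts DNA where nucleosomes leave it free, so a count measures how open a stretch of chromatin is in the sampled cells. In such sorted pools, a smaller share of cells with an open region and a less open region in each cell cannot be told apart.

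Called regions were divided by how the response differed. In a weaker response the genotype effect in LSK passed the test and was larger in size than that in GMP. In a stronger response the genotype effect in GMP passed and was the larger. In an opposite response both effects passed, with different signs. Weaker and stronger responses thus include regions where the smaller effect had the other sign but did not pass. The following sequences show the central 300 bases of the region with the smallest interaction p of each of the 6 resulting classes, so that the named loci can be read beside their values, with 1 more region (Iqgap3) added after its values were seen because its centre holds both a PU.1 and a C/EBP motif. They are plus-strand sequence of GRCm38 read by coordinate, named by the nearest protein-coding gene, with matches to the searched motifs in capitals (PU.1 GAGGAAGT, C/EBP TTGCNNAA, RUNX AACCACA, IRF GAAANNGAA, on either strand). A match is a description of letters, not a mapped binding site.
Olfr1394, weaker, lower in URE-LSK, intron of Btnl9, chr11:49170628-49170927: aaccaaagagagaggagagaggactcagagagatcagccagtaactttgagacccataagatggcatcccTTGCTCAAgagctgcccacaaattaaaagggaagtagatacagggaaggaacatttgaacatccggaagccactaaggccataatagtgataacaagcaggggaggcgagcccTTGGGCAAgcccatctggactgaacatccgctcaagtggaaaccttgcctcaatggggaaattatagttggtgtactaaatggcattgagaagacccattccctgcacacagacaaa
Iqgap3, weaker, lower in URE-LSK, intron, chr3:88102669-88102968: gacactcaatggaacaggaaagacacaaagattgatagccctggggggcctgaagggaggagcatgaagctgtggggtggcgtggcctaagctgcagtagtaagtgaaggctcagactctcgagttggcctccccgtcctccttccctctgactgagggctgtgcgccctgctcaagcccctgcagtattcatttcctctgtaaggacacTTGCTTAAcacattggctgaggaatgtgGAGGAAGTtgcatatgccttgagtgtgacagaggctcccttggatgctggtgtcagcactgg
Fbxo31, weaker, higher in URE-LSK, intron, chr8:121570583-121570882: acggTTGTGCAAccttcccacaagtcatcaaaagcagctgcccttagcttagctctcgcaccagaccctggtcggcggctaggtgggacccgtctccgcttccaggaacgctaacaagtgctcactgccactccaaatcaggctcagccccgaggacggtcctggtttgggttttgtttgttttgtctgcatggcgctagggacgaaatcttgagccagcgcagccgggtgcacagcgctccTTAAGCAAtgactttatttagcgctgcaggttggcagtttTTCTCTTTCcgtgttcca
Rtn1, stronger, lower in URE-GMP, intron, chr12:72361946-72362245: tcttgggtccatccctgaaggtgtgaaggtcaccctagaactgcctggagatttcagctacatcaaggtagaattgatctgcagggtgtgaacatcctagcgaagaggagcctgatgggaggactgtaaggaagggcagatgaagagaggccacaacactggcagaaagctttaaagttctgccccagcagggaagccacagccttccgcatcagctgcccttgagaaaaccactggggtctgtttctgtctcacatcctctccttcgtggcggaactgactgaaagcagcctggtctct
Fam83d, stronger, higher in URE-GMP, intron of Ppp1r16b, chr2:158734097-158734396: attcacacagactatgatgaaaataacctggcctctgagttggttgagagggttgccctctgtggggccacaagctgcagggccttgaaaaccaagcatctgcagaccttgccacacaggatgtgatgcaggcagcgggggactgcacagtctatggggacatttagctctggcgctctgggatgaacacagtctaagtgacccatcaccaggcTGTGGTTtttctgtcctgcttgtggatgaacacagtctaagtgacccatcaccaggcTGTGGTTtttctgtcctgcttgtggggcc
Lrrfip1, opposite, higher in URE-GMP, intron, chr1:91080266-91080565: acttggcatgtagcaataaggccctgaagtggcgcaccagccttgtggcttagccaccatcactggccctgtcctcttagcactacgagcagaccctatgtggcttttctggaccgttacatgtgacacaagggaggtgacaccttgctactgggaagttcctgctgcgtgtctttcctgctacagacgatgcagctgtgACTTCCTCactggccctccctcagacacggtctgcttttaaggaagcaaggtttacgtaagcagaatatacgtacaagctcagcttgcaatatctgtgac
Cd9, opposite, lower in URE-GMP, intergenic, chr6:125511245-125511544: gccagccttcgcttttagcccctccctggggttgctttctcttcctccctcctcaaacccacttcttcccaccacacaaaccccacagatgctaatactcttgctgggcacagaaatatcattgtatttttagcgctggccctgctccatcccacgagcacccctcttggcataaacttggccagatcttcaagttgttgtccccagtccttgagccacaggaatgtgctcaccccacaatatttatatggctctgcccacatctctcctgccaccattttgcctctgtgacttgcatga
The Olfr1394 window holds 2 C/EBP matches, the Iqgap3 window 1 PU.1 and 1 C/EBP match, the Fbxo31 window 2 C/EBP matches and 1 IRF match, and the Lrrfip1 window 1 PU.1 match. The Fam83d window holds 2 RUNX matches because an exact 59-base repeat occurs in it. The Rtn1 and Cd9 windows hold none of the searched motifs. Over all 121336 regions, the central 300 bases held the PU.1 motif in 8.70%, the C/EBP motif in 16.4%, the RUNX motif in 14.4% and the IRF motif in 10.8%.

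Total counts ranged from 23072701 in WT-LSK replicate 2 to 62204826 in URE-GMP replicate 2, so that 3 counts correspond to 0.0520 to 0.126 CPM (counts scaled to a library total of 1000000). CPM values below are scaled with the trimmed mean of M-values (TMM). The biological coefficient of variation was 0.185. The labelled cell types were checked at regions within 5 kb of marker genes. The 5 GMP markers with a region (Mpo, Elane, Prtn3, Ctsg and Ms4a3) were higher in GMP than in LSK without overlap between libraries in both genotypes, with ratios of 1.26 to 26.4 in WT and 1.70 to 20.1 in URE. Of 5 LSK markers (Hlf, Mecom, Meis1, Procr and Hoxa9), 4 were higher in LSK in WT, Procr being the exception at a ratio of 0.976, and 5 were higher in LSK in URE, 3 of them without overlap. The LSK marker ratios were small, 0.976 to 1.64 in WT and 1.08 to 2.81 in URE. The region with most counts near Hoxa9, which stands for it here, is the Hoxa7 promoter, and the promoter of Hoxa9 itself had means of 30.7 (WT-LSK) and 32.4 CPM (WT-GMP) and a called interaction. None of the 10 regions used had a called interaction by edgeR or by DESeq2. By edgeR, 5 were at an unadjusted p under 0.05, and 3 passed the adjusted p and missed only the fold threshold. These were Meis1 (-0.77), the Hoxa7 promoter (-0.44) and Prtn3 (0.44). Ly6a and Fcgr3 had no region within 5 kb.

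The interaction was called at 16975 of 121336 regions (14.0% called), 10873 positive (8.96% called) and 6102 negative (5.03% called). A weaker response in GMP was the most frequent, with 9699 regions (7.99% called). A stronger response in GMP was found at 5999 regions (4.94% called), and an opposite response at 1195 regions (0.985% called). A further 82 called regions met none of these definitions. The weaker class was made up mainly of regions that closed in URE-LSK (7338 regions, 6.05% called), and of fewer that opened there (2361 regions, 1.95% called). Of the stronger class, 3058 regions were lower (2.52% called) and 2941 were higher (2.42% called) in URE-GMP. Of the opposite class, 566 regions (0.466% called) were higher and 629 (0.518% called) lower in URE-GMP. The negative count fell to 3979 without WT-GMP replicate 3 and to 4046 without WT-LSK replicate 2. The count of weaker regions that opened in URE-LSK fell to 1560 without URE-LSK replicate 1, to 1457 without WT-GMP replicate 3 and to 1402 without WT-LSK replicate 2. The count of opposite regions lower in GMP was 406 without URE-LSK replicate 1, 361 without WT-GMP replicate 3, and 378, 336 and 376 without WT-LSK replicate 1, 2 and 3.

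**Figure D1:**
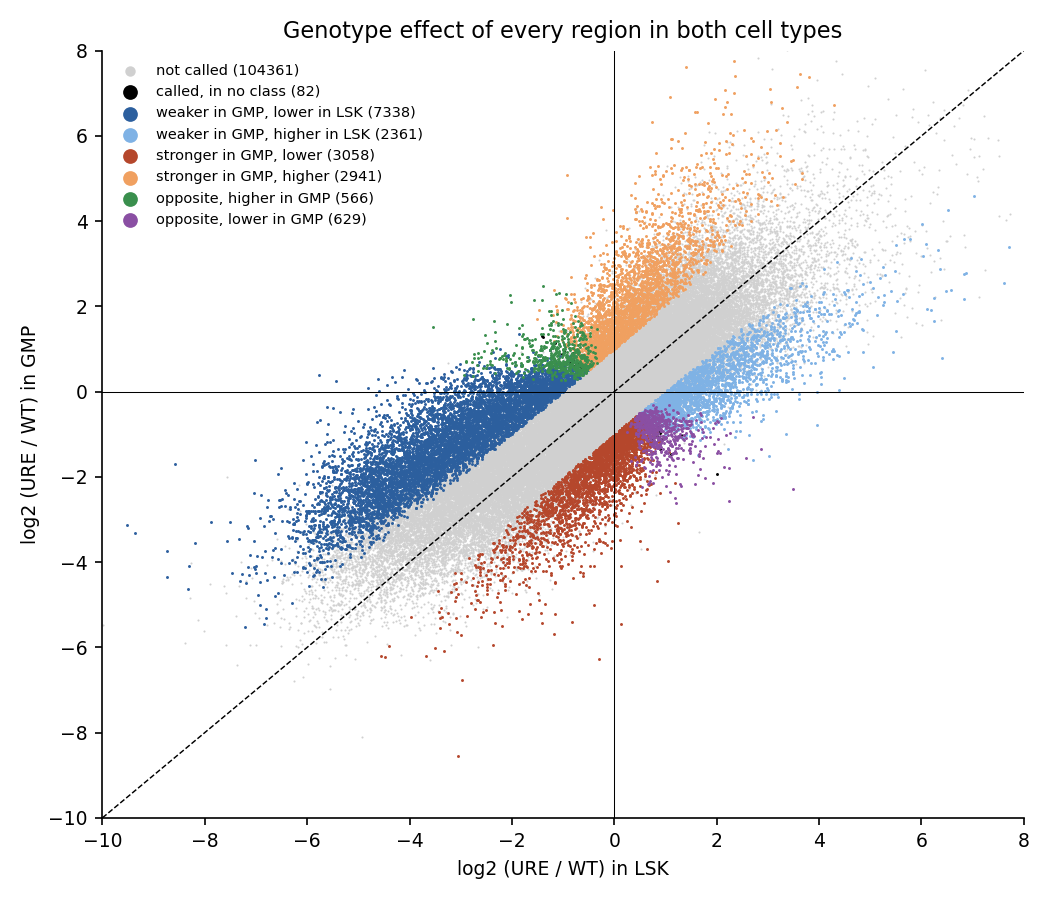
The log2 URE/WT effect in LSK (x axis) is plotted against that in GMP (y axis) for each region, coloured by class, with the dashed line marking equal effects and 18 regions outside the axes. Regions of the weaker class that closed in URE-LSK (7338, dark blue) form the largest group above the diagonal.

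The split between positive and negative calls depended on how libraries were scaled. Positive calls made up 64.05% of calls with TMM, and 47.5% and 48.63% with loess offsets against abundance and GC content offsets. Both offsets moved the median interaction of all regions to -0.11, against 0.01 with TMM. Positive calls made up 73.3% without WT-GMP replicate 3, where the median was 0.12. The weaker class that closed in LSK and the stronger class that closed in GMP had counts within 1.5 times of those with TMM under both offsets, whereas the weaker class that opened in LSK rose to 4524 with loess and 4642 with GC offsets.

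Called regions lay mostly away from gene starts. Of 16788 regions within 500 bp of a start site, 655 were called (3.90%), against 16320 of 104548 other regions (15.6%). The share of promoter regions was 3.37% in the weaker class lower in LSK, 2.20% in the weaker class higher in LSK, 5.43% and 4.52% in the stronger classes lower and higher in GMP, and 4.06% and 5.09% in the opposite classes higher and lower in GMP, against 13.8% of all regions.

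Regions that closed in URE-LSK with a weaker response in GMP had a median log2 genotype effect of -3.27 in LSK and of -1.14 in GMP. Their median level was 3.80 (WT-LSK), 0.375 (URE-LSK), 4.98 (WT-GMP) and 2.07 CPM (URE-GMP). The GMP effect also passed the test at 4940 of the 7338 regions, with the same sign as in LSK, and did not pass at 2398. Most were open in both wild-type cell types: 89.2% had at least 1 CPM in WT-LSK and in WT-GMP, against 70.0% of all regions. The region with the smallest interaction p lay in an intron of Btnl9 (chr11:49170559-49170996), with the start of the olfactory receptor gene Olfr1394 nearest. It had 12.6, 12.1 and 11.8 CPM in the WT-LSK libraries and 0.404, 0.307 and 0.555 CPM in the URE-LSK libraries. The WT-GMP libraries had 18.4, 23.2 and 23.0 CPM and the URE-GMP libraries 15.5, 18.3 and 15 CPM. The region was thus nearly closed in each URE-LSK library and remained open in each URE-GMP library, without overlap between genotypes in either cell type. The log2 genotype effect was -4.82 (SE 0.20) in LSK and -0.41 (SE 0.15) in GMP, an interaction of 4.41 (SE 0.25, adjusted p = 8.51e-07).

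An intron of Iqgap3, which encodes a scaffold protein of the cytoskeleton, behaved alike at chr3:88102540-88103097. Its levels were 8.45, 10.3 and 12.2 CPM in the WT-LSK libraries and 0.833, 0.698 and 0.726 CPM in those of URE-LSK. In GMP they were 13.8, 15.2 and 13.3 CPM in WT and 13.2, 14.5 and 12.9 CPM in URE. Only LSK separated the genotypes here, and the WT and URE libraries of GMP overlapped. The interaction was 3.71 (SE 0.24, adjusted p = 1.59e-06), with a GMP effect of -0.07 (SE 0.15, adjusted p = 0.721). An intronic region of Foxp1, a forkhead transcription factor of lymphocytes and monocytes, was at chr6:99489795-99490512. It fell from 21.4, 20.5 and 21.8 CPM in WT-LSK to 0.976, 1.67 and 1.43 CPM in URE-LSK. In GMP the levels were 24.7, 25.7 and 19.9 CPM in WT and 18, 18.7 and 15 CPM in URE. Its interaction was 3.53 (SE 0.23, adjusted p = 1.59e-06). Counted by nearest gene, Plac8 had the most regions of this class, 9 of its 24 regions, with medians of -2.48 in LSK and -0.08 in GMP. Foxp1 followed with 8 of 73 regions, with medians of -3.08 and -1.16, and had 5 with loess or GC content offsets.

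Regions that opened in URE-LSK with a weaker response in GMP had median effects of 1.78 in LSK and 0.08 in GMP. The lower quartile of the GMP effect was -0.32, so part of them had a negative effect there. They were at low levels in WT, with medians of 1.27 CPM (WT-LSK) and 1.23 CPM (WT-GMP), and reached 4.68 CPM in URE-LSK against 1.38 CPM in URE-GMP. At 1832 of the 2361 regions the GMP effect did not pass the test. At 44.9% of them both wild-type cell types had at least 1 CPM. The leading region lay in an intron of Fbxo31, an F-box protein of ubiquitin ligases (chr8:121570005-121571460). It rose from 11.3, 13.6 and 16.1 CPM in WT-LSK to 97.3, 94.4 and 78.2 CPM in URE-LSK. WT-GMP libraries were already at 47.5, 48.3 and 46.3 CPM, and URE-GMP libraries at 86.3, 83.7 and 91.4 CPM. The URE levels of both cell types were close to each other, and the WT levels were not. In LSK the effect was 2.71 (SE 0.11) and the GMP effect 0.88 (SE 0.11), an interaction of -1.83 (SE 0.15, adjusted p = 6.32e-06).

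A similar arrangement was seen 30134 bp from a start of Slc38a2, an amino acid transporter (chr15:96729864-96730232). WT-LSK libraries had 0.420, 0.367 and 0.402 CPM and URE-LSK libraries 7.54, 7.84 and 9.98 CPM. WT-GMP libraries had 3.72, 3.29 and 2.81 CPM and URE-GMP libraries 6.95, 7.06 and 9.69 CPM. URE libraries were higher in both cell types without overlap, and WT-LSK was the lowest group. The interaction was -3.12 (SE 0.31, adjusted p = 1.90e-05). At a coding exon of Alg12, a mannosyltransferase of protein glycosylation, the mean rose in LSK from 2.16 ± 0.105 to 37.3 ± 3.54 CPM and in GMP from 6.90 ± 1.48 to 24.1 ± 2.85 CPM (SD, n = 3). Its interaction was -2.29 (SE 0.21, adjusted p = 1.29e-05). Galm and Itpr2, each with 4 regions of this class, were among 3 genes with that many.

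Regions that closed mainly in URE-GMP had median effects of -0.23 in LSK and -1.83 in GMP. Their median levels were 4.02 (WT-LSK), 3.22 (URE-LSK), 3.35 (WT-GMP) and 0.843 CPM (URE-GMP). At 1001 of the 3058 regions the LSK effect also passed the test, and at 84.2% both wild-type cell types had at least 1 CPM. An intron of Rtn1, a reticulon of the endoplasmic reticulum (chr12:72361672-72362518), had the smallest interaction p. It was at 35.7, 38.2 and 31.8 CPM in the WT-LSK libraries and at 15.4, 15.4 and 18.5 CPM in those of URE-LSK. It was at 29.0, 26.6 and 33.9 CPM in WT-GMP and at 3.04, 3.11 and 2.79 CPM in URE-GMP. All URE libraries were below all WT libraries, and the GMP libraries by far the more. The LSK effect was -1.10 (SE 0.12), the GMP effect -3.32 (SE 0.13) and the interaction -2.22 (SE 0.17, adjusted p = 4.21e-06).

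The region in A230072I06Rik (chr8:12279442-12280211), 623 bp from its start, went from 11.5, 10.2 and 11.2 CPM to 6.66, 7.93 and 7.82 CPM in LSK. In GMP it went from 8.66, 10.2 and 10.1 CPM to 0.926, 0.850 and 1.11 CPM. Wild-type levels were alike in both cell types, and the URE levels were not. The interaction was -2.78 (SE 0.23, adjusted p = 6.61e-06). An intron of Sec31b, a coat protein of vesicles leaving the endoplasmic reticulum (chr19:44525477-44526109), fell in LSK from 18 ± 0.780 to 6.80 ± 0.385 CPM and in GMP from 14.1 ± 2.23 to 1.15 ± 0.141 CPM (SD, n = 3). Its interaction was -2.21 (SE 0.22, adjusted p = 2.08e-05). Meis1, a homeobox factor that works with HOXA9 in stem cells, had 7 of its 16 regions in this class, with medians of -0.06 in LSK and -1.88 in GMP. Amotl2, an adaptor of the Hippo pathway, had 7 of its 10 regions, with medians of -0.42 and -2.65.

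Regions that opened mainly in URE-GMP had median effects of 0.30 in LSK and 2.03 in GMP. Their median levels were 0.804 (WT-LSK), 0.997 (URE-LSK), 1.08 (WT-GMP) and 4.75 CPM (URE-GMP). At 768 of the 2941 regions the LSK effect also passed the test, and at 35.5% both wild-type cell types had at least 1 CPM. The leading region lay in an intron of Ppp1r16b, 33340 bp from a start of Fam83d (chr2:158733740-158734753). It was at 18.6, 19.4 and 15.6 CPM in the WT-LSK libraries and at 22.3, 20.9 and 21.4 CPM in those of URE-LSK. It was at 7.40, 7.53 and 8.90 CPM in WT-GMP and at 30.4, 30.8 and 32.2 CPM in URE-GMP. WT-GMP was the lowest group and URE-GMP the highest, with both LSK groups between them. The LSK effect was 0.27 (SE 0.11, adjusted p = 0.0467), the GMP effect 1.97 (SE 0.12) and the interaction 1.70 (SE 0.16, adjusted p = 1.26e-05).

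An intron of Celf2, an RNA-binding splicing regulator (chr2:6896913-6897333), was open in LSK of both genotypes, with 8.53, 9.30 and 10.7 CPM in WT and 11.1, 10.2 and 11.6 CPM in URE. In GMP it was at 0.879, 1.13 and 1.31 CPM in WT and at 8.18, 9.70 and 14.5 CPM in URE. The URE-GMP libraries were thus in the range of LSK, and the LSK genotypes overlapped. Its interaction was 3.05 (SE 0.30, adjusted p = 1.91e-05), with an LSK effect of 0.20 (SE 0.20, adjusted p = 0.390). The start site region of Acox2, a peroxisomal oxidase of bile acid synthesis (chr14:8258757-8259189), rose in LSK from 3.48 ± 0.809 to 6.10 ± 0.318 CPM and in GMP from 1.23 ± 0.228 to 17.1 ± 1.99 CPM (SD, n = 3). Its interaction was 3.0 (SE 0.29, adjusted p = 1.5e-05). Mgll, a lipase of monoacylglycerols, had 6 of its 19 regions in this class, with medians of 0.29 in LSK and 2.28 in GMP. Thy1, a surface glycoprotein of T cells and some progenitors, had 6 of its 17, with medians of 0.01 and 1.20, but only 1 with loess or GC content offsets.

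Opposite responses with opening in URE-GMP had median effects of -1.01 in LSK and 0.75 in GMP. Median levels were 3.03 (WT-LSK), 1.37 (URE-LSK), 4.87 (WT-GMP) and 8.74 CPM (URE-GMP). The intronic region of Lrrfip1, a regulator of transcription and innate nucleic acid sensing (chr1:91080013-91080817), had the smallest interaction p. It fell from 25, 28.8 and 22.7 CPM in WT-LSK to 3.19, 5.16 and 5.21 CPM in URE-LSK. It rose from 34.7, 39.8 and 34.9 CPM in WT-GMP to 58.4, 57.1 and 54.5 CPM in URE-GMP. The genotypes did not overlap in either cell type, and their order was reversed between them. In LSK the effect was -2.49 (SE 0.15, adjusted p = 5.81e-09), the GMP effect 0.63 (SE 0.14, adjusted p = 8.15e-04) and the interaction 3.13 (SE 0.20, adjusted p = 1.59e-06).

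The same reversal was measured upstream of Hpcal1, a neuronal calcium sensor (chr12:17681885-17682572), where LSK went from 11.3, 16.2 and 14.6 CPM to 1.36, 1.95 and 2.14 CPM. GMP there went from 27.9, 24.1 and 21.8 CPM to 33.0, 33.3 and 30.9 CPM. Upstream of Rab44, a large Rab GTPase (chr17:29111307-29112101), LSK went from 24.9 ± 1.98 to 3.67 ± 1.20 CPM and GMP from 40.5 ± 1.61 to 52.4 ± 1.84 CPM (SD, n = 3). The GMP effects of these regions were 0.40 (SE 0.15) and 0.37 (SE 0.15), with adjusted p of 0.0290 and 0.0378, much smaller than their LSK effects of -2.94 (SE 0.18) and -2.76 (SE 0.17). Ankrd33b and Iqsec1, with 3 such regions each, were among 4 genes with that many, and had 2 to 4 each under the other scalings.

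Opposite responses with closing in URE-GMP had median effects of 0.80 in LSK and -0.86 in GMP. Median levels were 3.37 (WT-LSK), 6.32 (URE-LSK), 3.08 (WT-GMP) and 1.64 CPM (URE-GMP). The leading region lay 16378 bp from a start of Cd9, a tetraspanin of stem cells and megakaryocytes (chr6:125511169-125511620). It rose from 15.4, 14.3 and 16.1 CPM in WT-LSK to 25.6, 26.5 and 25 CPM in URE-LSK. It fell from 8.74, 11.8 and 11.0 CPM in WT-GMP to 2.41, 3.16 and 3.32 CPM in URE-GMP. The difference between LSK and GMP was therefore wider in URE than in WT mice. The LSK effect was 0.75 (SE 0.14, adjusted p = 2.60e-04), the GMP effect -1.83 (SE 0.15, adjusted p = 1.35e-07) and the interaction -2.59 (SE 0.21, adjusted p = 4.61e-06). This distal region does not stand for the gene. The Cd9 promoter rose in LSK (0.39) and in GMP (0.75), with an interaction of 0.36 that was not called (edgeR adjusted p = 0.185). Of 27 regions within 50 kb of a Cd9 start 6 were called, 3 positive and 3 negative, and the median interaction was 0.27.

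The region nearest to Cpeb2, a regulator of cytoplasmic polyadenylation, lay 47950 bp away (chr5:43184814-43185220). It went from 5.88, 5.71 and 5.79 CPM to 9.90, 9.02 and 8.59 CPM in LSK and from 3.43, 3.04 and 3.73 CPM to 0.646, 0.850 and 0.775 CPM in GMP. Its interaction was -2.82 (SE 0.25, adjusted p = 8.73e-06). A region in an intron of Antxr1, with D6Ertd527e as the nearest start (chr6:87152188-87153468), rose from 43.8 ± 2.61 to 80.0 ± 7.04 CPM in LSK and fell from 24.4 ± 3.01 to 16.2 ± 0.472 CPM in GMP (SD, n = 3). Its interaction was -1.46 (SE 0.14, adjusted p = 1.30e-05). Il10ra, the receptor for interleukin-10, had 3 regions of this class with TMM and with GC content offsets, 2 with the other library scalings and 1 with loess offsets.

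**Figure D2:**
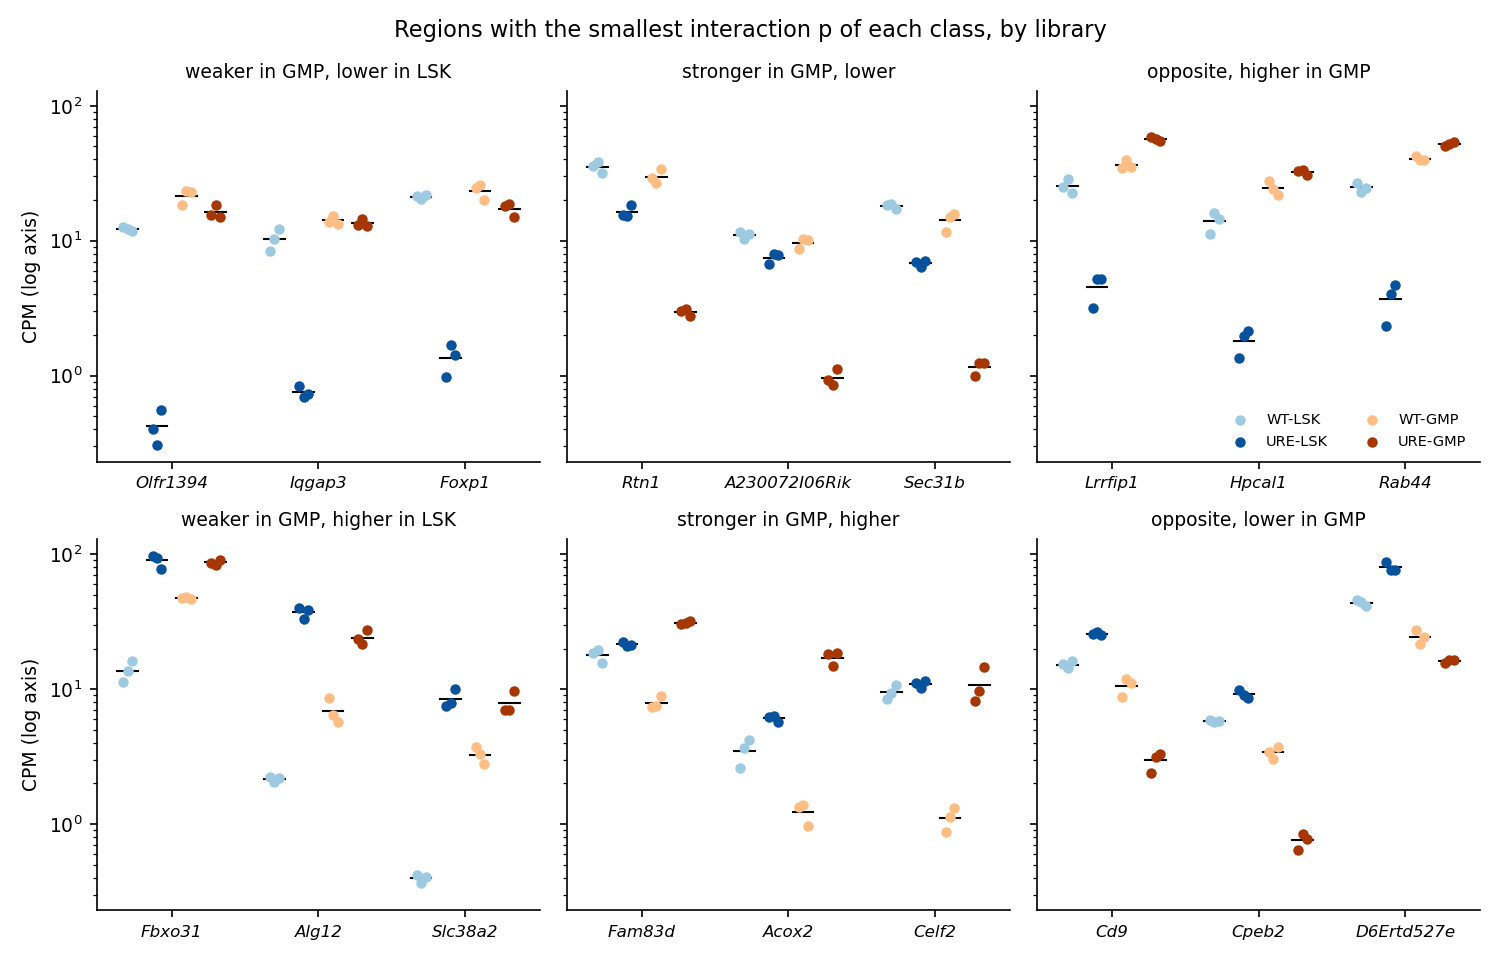
CPM on a log axis is shown for each of the 12 libraries (points) with the group mean (bar) at the 3 regions with the smallest interaction p in each class. At Olfr1394 the URE-LSK libraries lie at 0.307 to 0.555 CPM and the URE-GMP libraries at 15 to 18.3 CPM, and at Lrrfip1 the order of WT and URE is reversed between LSK and GMP.

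At Spi1 itself, 18 regions lay within 20 kb of an annotated start site, including starts close to the deleted element, and 2 of them had a called interaction. The promoter (chr2:91096454-91097341) had 36.6, 34.1 and 34.8 CPM in the WT-LSK libraries and 2.83, 8.46 and 5.64 CPM in those of URE-LSK. WT-GMP libraries had 33.8, 37.1 and 36.1 CPM and URE-GMP libraries 24.2, 29.1 and 21.2 CPM. Wild-type levels of the promoter were alike in LSK and GMP, and URE-LSK had the lowest levels. The interaction was 2.13 (SE 0.33, adjusted p = 5.10e-04), while the GMP effect of -0.52 (SE 0.22) had an adjusted p of 0.0555. The other call was an intronic region (chr2:91087482-91087805) centred 9306 bp before the start codon. Its levels went from 4.30, 4.16 and 3.82 CPM to 0.595, 0.642 and 0.854 CPM in LSK, and from 2.97, 2.62 and 3.34 CPM to 1.25, 1.35 and 1.28 CPM in GMP. Its interaction was 1.34 (SE 0.30, adjusted p = 0.00626).

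In the window of the deleted element, 12 to 17 kb before the start codon, none of 5 regions had a called interaction by edgeR, with 3 at an unadjusted p under 0.05 and 1 called by DESeq2. Single regions of the window were called without URE-LSK replicate 1 (-4.60, adjusted p = 0.0314) and without WT-GMP replicate 2 (-1.23, adjusted p = 0.0489). At 3 of them URE-GMP libraries held at most 2 counts and URE-LSK libraries at most 6, so that a fitted interaction there depends on the prior count and was not read as a difference. Against a floor of 3 counts per library, WT-GMP was at least 204-fold, 125-fold and 694-fold higher than URE-GMP at these regions. URE mice lack the deleted DNA itself, so low URE counts inside it do not measure how open chromatin is. Which regions of the window the deletion covers was not tested. An intronic region 1429 bp past the start codon (chr2:91098237-91098520) had 0.50, 0.809 and 2.35 CPM in URE-LSK, against 3.28, 2.90 and 2.77 CPM in WT-LSK. URE-LSK replicate 3 stood apart there, and the edgeR interaction of 1.38 (SE 0.48, adjusted p = 0.0603) became 2.32 (adjusted p = 2.26e-04) without it. With all 12 libraries the region was called by DESeq2 (1.41, adjusted p = 0.0348). It was also called with replicate blocks over all libraries (1.45), within genotype (1.56) and within genotype with GC content offsets (1.43). Towards the 3′ side, a region centred 18291 bp past the start codon (chr2:91115073-91115407) rose in both cell types, in LSK from 1.67 ± 0.387 to 11.3 ± 0.958 CPM and in GMP from 3.46 ± 0.334 to 14.3 ± 0.387 CPM (SD, n = 3). Its interaction of -0.70 (SE 0.24) was not called (adjusted p = 0.0588).

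**Figure D3:**
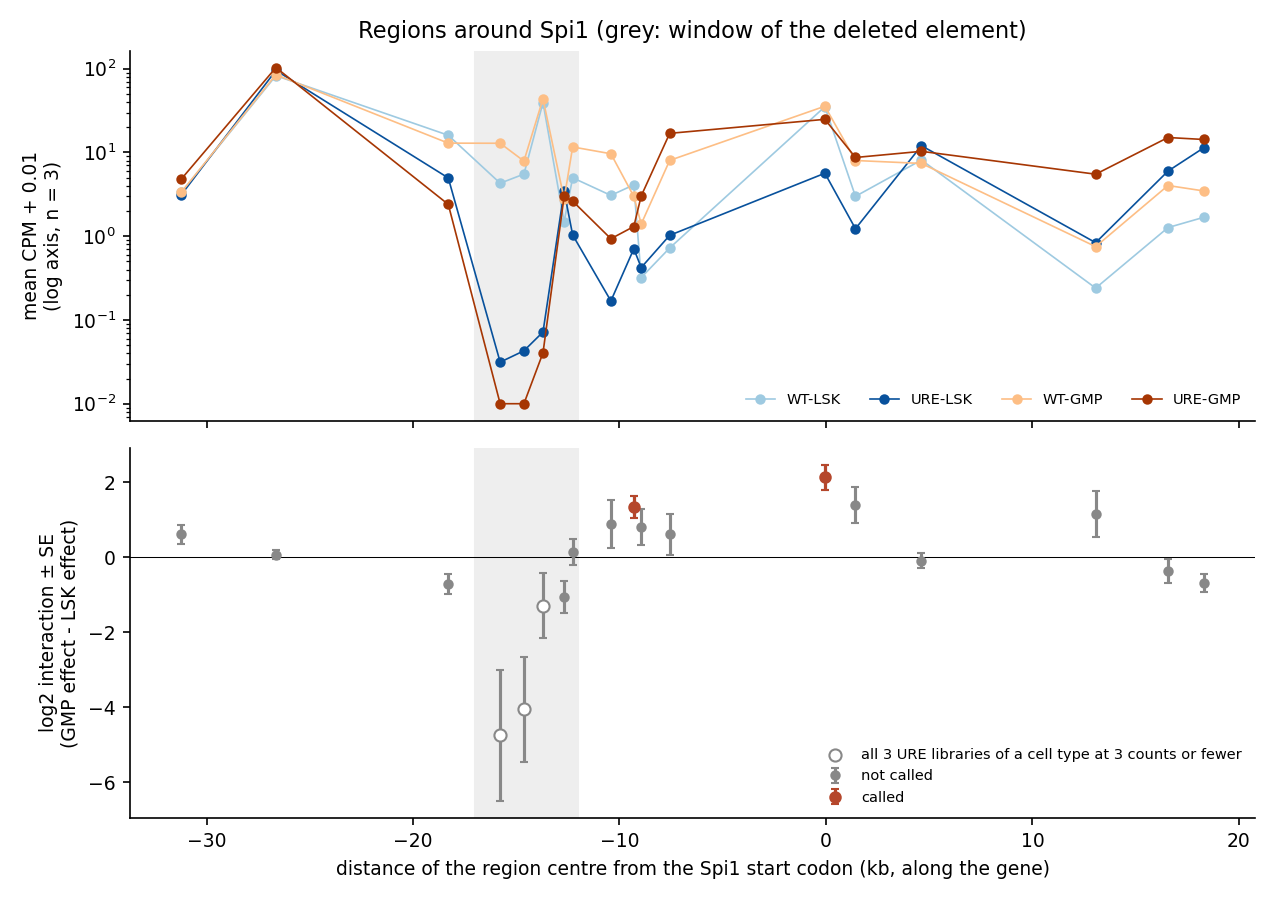
The upper panel shows the mean CPM (n = 3, log axis) of each group at the 18 regions around Spi1 by distance from its start codon in kb, and the lower panel the log2 interaction with its SE, with the window of the deleted element in grey and open symbols where the URE libraries of a cell type held at most 3 counts. Only the promoter (2.13) and the region 9306 bp before the start codon (1.34) are called.

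Genes of blood cell types were described by 14 lists holding 210 genes, of which 209 matched the annotation. Within 50 kb of any protein-coding start site lay 92044 regions, of which 12.9% were called, 8.69% positive and 4.25% negative. Within 50 kb of a start of a list gene lay 3061 regions, of which 421 were called (13.8%). The following counts concern regions near genes and not expression, and neighbouring lists share some regions. Shares in brackets are of a list's regions, to be read against the background of 8.69% positive and 4.25% negative.

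Monocyte and macrophage genes had the largest share of positive calls among the 14 lists. Of 270 regions, 45 were positive (16.7%) and 7 negative (2.59%). Of the calls, 38 were regions that closed in URE-LSK with a weaker response in GMP. The median interaction was 0.20. With loess and GC content offsets the counts were 35 positive and 9 negative, and 34 and 10. The region with the smallest p lay in an intron of Ccr2, the receptor that draws monocytes out of bone marrow (chr9:124112615-124112921). Levels were 7.35, 7.63 and 8.04 CPM in the WT-LSK libraries and 0.286, 0.530 and 0.513 CPM in those of URE-LSK. In GMP they were 8.66, 10.5 and 11.8 CPM in WT and 5.12, 4.91 and 4.60 CPM in URE. URE was lower in both cell types without overlap, by a far larger ratio in LSK. The LSK effect was -4.11 (SE 0.23), the GMP effect -1.08 (SE 0.18) and the interaction 3.03 (SE 0.29, adjusted p = 1.58e-05).

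Of the 19 promoter regions of this list, 10 were called, all lower in URE-LSK with a weaker response in GMP, against 3.90% of all promoter regions. The promoters named here and below were picked after their values were seen. The median effect over the 19 was -1.88 in LSK and -0.98 in GMP. At Itgam, the CD11b integrin of myeloid cells, WT-LSK libraries had 7.64, 8.53 and 9.37 CPM and URE-LSK libraries 0.262, 0.642 and 0.491 CPM. The WT-GMP libraries had 8.99, 9.06 and 8.27 CPM and the URE-GMP libraries 2.45, 3.30 and 1.33 CPM. The interaction was 2.32 (SE 0.42, adjusted p = 0.00156). At Fcgr1, the high-affinity receptor for IgG, LSK fell from 17.3 ± 1.48 to 1.16 ± 0.521 CPM and GMP from 14.6 ± 0.686 to 3.91 ± 0.856 CPM (SD, n = 3), with an interaction of 2.02 (SE 0.33).

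At Csf1r, the receptor for macrophage colony-stimulating factor, the URE-LSK libraries had 0.119, 0.167 and 0.235 CPM and the WT-LSK libraries 4.22, 3.83 and 3.44 CPM. The WT-GMP libraries had 12.9, 12.1 and 9.17 CPM and the URE-GMP libraries 3.12, 4.93 and 1.5 CPM, so that the genotypes did not overlap in either cell type. The interaction was 2.60 (SE 0.53, adjusted p = 0.00380). Mpeg1, a pore-forming protein of macrophages, had the largest interaction of the 10, at 3.34 (SE 0.57, adjusted p = 0.00106). At Tyrobp and Fcer1g, signalling adaptors of immune receptors, interactions were 2.06 (SE 0.21) and 1.84 (SE 0.32), with GMP effects of -0.57 (SE 0.14, adjusted p = 0.00274) and -0.18 (SE 0.22, adjusted p = 0.479). At Lyz2 (lysozyme), F13a1 (a coagulation factor subunit) and Ly6c2 (a monocyte surface protein whose reads may be shared with related Ly6 genes), the GMP effects of -0.15, 0.04 and 0.34 did not pass the test and the interactions were 1.34, 1.09 and 1.84. At Cx3cr1, the fractalkine receptor, the interaction was 1.30 (SE 0.19, adjusted p = 3.10e-04). F13a1 lost the call with loess (0.89) and GC content offsets (0.84), where 9 promoters of the list were called positive. A test against the fold threshold itself (glmTreat) asks for more than the call. Under it Cx3cr1, Lyz2, F13a1, Ly6c2 and Fcer1g lost the call, with adjusted p of 0.246, 0.334, 0.870, 0.104 and 0.0630. The other promoters of the 10 kept it.

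The other 9 promoters of the list were not called. Interactions were below 0 at 3 of them. For Tlr2, a receptor for bacterial lipoproteins, the GMP effect of -0.98 passed the test and the LSK effect of -0.14 did not, and the interaction was -0.84 (adjusted p = 0.00184, under the fold threshold). Cd14, a co-receptor for lipopolysaccharide, had effects of -0.22 in LSK and -1.18 in GMP and an interaction of -0.96 (adjusted p = 0.131), and Ccr2 had 0.05, -0.04 and -0.10 (adjusted p = 0.915). Ctss, a lysosomal protease, had similar effects of -2.77 and -2.55, and the interactions of 0.50 at Cd68 (adjusted p = 0.282) and 0.24 at Tlr4 (adjusted p = 0.532) did not pass. Adgre1 (0.89), Cd180 (0.87) and Ly86 (1.44) had adjusted p of 0.0558, 0.0546 and 0.134.

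Stem cell transcription factors, taken as a list, had more negative than positive calls. Of 375 regions, 16 were positive (4.27%) and 28 negative (7.47%), with a median interaction of -0.21. In all, 11.7% were called, against 12.9% near any protein-coding start site. The counts were 12 and 49 with loess offsets and 14 and 49 with GC content offsets. The largest class was closing in URE-GMP, with 18 regions, and Meis1 had most calls, 8. Members differed in direction. All calls were negative near Meis1, Hlf (4), Mecom (3), Gfi1b (3) and Mycn (1). All were positive near Gata2 (5), Fli1 (3), Lmo2 (2) and Etv6 (2). Of 20 promoters of this list, 17 had an interaction below 0, and Hoxa9 and Hoxa10 were called. The Hoxa9 promoter (chr6:52225682-52226607), of a homeobox gene of stem and leukaemic cells, was at 31.9, 28.1 and 32.2 CPM in the WT-LSK libraries and at 41.3, 41.7 and 39.1 CPM in those of URE-LSK. It was at 37.4, 29.1 and 30.9 CPM in WT-GMP and at 19.0, 24.9 and 19.2 CPM in URE-GMP. Levels of the WT libraries were alike in both cell types, and in URE they parted in opposite directions. The LSK effect was 0.40 (SE 0.12, adjusted p = 0.00778), the GMP effect -0.62 (SE 0.12, adjusted p = 2.90e-04) and the interaction -1.02 (SE 0.17, adjusted p = 7.38e-04).

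At the Hoxa10 promoter, LSK had 33.7 ± 0.378 CPM in WT and 38.6 ± 5.89 CPM in URE, whereas GMP fell from 14.8 ± 2.10 to 8.05 ± 0.525 CPM (SD, n = 3). Its interaction was -1.07 (SE 0.17, adjusted p = 7.69e-04). The Meis1 promoter had effects of -0.15 (SE 0.11, adjusted p = 0.269) in LSK and -0.92 (SE 0.11, adjusted p = 5.43e-06) in GMP. Its interaction of -0.77 (SE 0.16, adjusted p = 0.00379) was below the fold threshold. Hoxa9 lost the call without URE-GMP replicate 1 or 3, WT-GMP replicate 1 or 3, or WT-LSK replicate 1 or 2, at interactions of -0.99 to -0.89, and with TMM on promoter regions (-0.96). Hoxa10 lost it without URE-LSK replicate 2 (-1.0) or WT-GMP replicate 1 (-0.93). Among regions with a mean of at least 2 CPM, neither Hoxa9 (-0.94) nor Hoxa10 (-0.99) kept the call, and neither did under glmTreat. The region of this list with the smallest p lay 46202 bp from a start of Nfe2, a factor of megakaryocytes and red cells, and nearer to Gpr84 (chr15:103304605-103305903). It had 59.2, 54.3 and 54.4 CPM in the WT-LSK libraries and 69.9, 68.9 and 60.1 CPM in those of URE-LSK, and fell from 40.8, 40.1 and 43.5 CPM to 20.3, 24.6 and 19.9 CPM in GMP. Its interaction was -1.19 (SE 0.13, adjusted p = 4.25e-05).

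Stem cell surface genes had calls in both directions, 24 positive (12.8%) and 17 negative (9.09%) of 187 regions, with 13 of the calls near Thy1. With loess and GC content offsets the majority turned negative. Among their promoters, Thy1 (1.16, SE 0.27) was lower in URE-LSK with a weaker response in GMP. Tek, the angiopoietin receptor, was lower in both cell types and more so in GMP, where the URE libraries had 0.151, 0.139 and 0.218 CPM, with an interaction of -1.83 (SE 0.54, adjusted p = 0.0299). The Tek call was lost without URE-GMP replicate 1 or 2, URE-LSK replicate 2, WT-GMP replicate 3 or any 1 of the WT-LSK libraries, at interactions of -1.86 to -1.37 and edgeR adjusted p of 0.0561 to 0.0859.

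Neutrophil granule genes had 31 positive (11.9%) and 5 negative calls (1.92%) of 260 regions. The counts were 29 and 9 with both loess and GC content offsets. Upstream of Fcnb, a ficolin of granulocytes (chr2:28091974-28092787), the response was opposite. LSK fell from 16.2, 17.1 and 18.8 CPM to 5.07, 5.44 and 7.09 CPM, and GMP rose from 32.2, 32.7 and 27.8 CPM to 42.9, 45.0 and 42.5 CPM. The interaction was 2.05 (SE 0.17, adjusted p = 5.88e-06), with a GMP effect of 0.49 (SE 0.12, adjusted p = 0.00165). Of the 17 promoters of this list 2 were called, both lower in URE-LSK. They do not stand for the list, as the median effect over the 17 was 0.44 in LSK and 0.73 in GMP. At S100a8, a calcium-binding protein of neutrophils, LSK fell from 3.09 ± 0.974 to 1.08 ± 0.272 CPM, whereas GMP stood at 15.2 ± 4.61 and 22.2 ± 3.12 CPM (SD, n = 3, GMP adjusted p = 0.0517). Its interaction was 2.03 (SE 0.37, adjusted p = 0.00169). At Mmp8, the neutrophil collagenase, LSK fell from 2.68 ± 0.343 to 0.533 ± 0.260 CPM and GMP stood at 17.5 ± 1.05 and 13.9 ± 0.137 CPM (SD, n = 3, GMP adjusted p = 0.144). Its interaction was 1.96 (SE 0.31, adjusted p = 5.92e-04).

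Myeloid transcription factors had 34 positive and 17 negative calls of 432 regions, shares of 7.87% and 3.94%, both below the background, and 28 positive and 24 negative with both loess and GC content offsets. At a UTR of Cebpd, a C/EBP factor of maturing myeloid cells (chr16:15889968-15890312), LSK fell from 7.45, 7.75 and 6.29 CPM to 0.595, 1.26 and 0.833 CPM. GMP there had 17.6, 14.9 and 14.1 CPM in WT and 9.84, 13.4 and 8.41 CPM in URE, and the interaction was 2.46 (SE 0.32, adjusted p = 1.55e-04). Besides Spi1, only the Cebpe promoter was called among the 24 promoters of the list, with an interaction of 1.03 (SE 0.31, adjusted p = 0.0317). Its LSK effect of -0.49 (SE 0.23) did not pass the test. The Cebpe call was lost without URE-GMP replicate 1 or 2, URE-LSK replicate 1 or 2, WT-GMP replicate 3 or WT-LSK replicate 3, at 0.85 to 1.02, and with loess (0.99) and GC content offsets (0.91).

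Cytokine receptors had 24 positive (8.92%) and 20 negative calls (7.43%) of 269 regions, 11 of them near Il10ra. The majority turned negative with loess and GC content offsets. Upstream of Tnfrsf1a, a receptor for tumour necrosis factor (chr6:125345587-125345921), LSK fell from 5.64, 5.30 and 5.93 CPM to 0.761, 1.12 and 0.983 CPM, while the GMP genotypes overlapped at 6.32 ± 0.618 and 5.51 ± 0.464 CPM (SD, n = 3). Its interaction was 2.36 (SE 0.26, adjusted p = 3.74e-05). The Csf2rb2 promoter, of a beta chain for interleukin-3, was lower in URE-LSK with a weaker response in GMP (1.83, SE 0.28). The Il10ra promoter rose in LSK and fell in GMP, with effects of 0.81 (SE 0.15) and -0.36 (SE 0.15, adjusted p = 0.0487) and an interaction of -1.17 (SE 0.21).

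RUNX and ETS factors other than PU.1 had 23 positive (8.39%) and 9 negative calls (3.28%) of 274 regions, both shares below the background. The counts were 18 and 20 with loess and 18 and 22 with GC content offsets. None of their 12 promoters was called by edgeR or DESeq2, with 2 at an unadjusted p under 0.05. An intron of Ets1, a lymphoid ETS factor (chr9:32705789-32706592), fell from 26.8, 28.9 and 27.1 CPM to 20, 22.3 and 23.0 CPM in LSK. It rose from 15.4, 20.3 and 19.2 CPM to 49.2, 44.0 and 60.3 CPM in GMP, an interaction of 1.82 (SE 0.17, adjusted p = 1.41e-05). Survival and autophagy genes had 24 positive (9.45%) and 2 negative calls (0.787%) of 254 regions, against a background of 8.69% and 4.25%. In all, 10.2% of their regions were called, against 12.9% near any protein-coding start site. The counts were 19 and 9 with loess and 18 and 10 with GC content offsets. Near Bcl2l11, which encodes the pro-apoptotic protein BIM, a region in an intron of Acoxl (chr2:128111611-128111995) fell from 4.30, 3.06 and 3.50 CPM to 0.928, 1.14 and 2.52 CPM in LSK and rose from 3.68, 3.21 and 2.44 CPM to 9.92, 9.59 and 8.77 CPM in GMP. Its interaction was 2.84 (SE 0.41, adjusted p = 3.02e-04). The Bcl2a1b promoter, of a BCL2 relative whose reads may be split with near-identical copies, had an interaction of 1.21 (SE 0.33). The Bcl2a1b call was lost without URE-GMP replicate 2, URE-LSK replicate 1 or URE-LSK replicate 3, at 0.99 to 1.12, and with GC content offsets (0.98).

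Of genes of other lineages, those of T and NK cells had 19 positive (10.2%) and 4 negative calls (2.14%) of 187 regions. B lineage genes had 7 and 7 of 170 (4.12% each). With loess and GC content offsets the counts were 14 and 6, and 16 and 5, for T and NK genes, and 6 and 13, and 5 and 12, for B lineage genes. An intron of Notch1, the receptor that starts T cell development (chr2:26483106-26483929), fell from 35.5, 38.7 and 34.9 CPM to 5.73, 9.69 and 8.18 CPM in LSK and stood at 53.9 ± 2.91 and 52.3 ± 1.85 CPM in GMP (SD, n = 3). Its interaction was 2.17 (SE 0.18, adjusted p = 7.25e-06). A region 40558 bp from a start of Cd79a, a chain of the B cell receptor (chr7:24856522-24856823), was nearly closed in URE-LSK, with 3 to 6 counts per library, against 131 to 282 counts in WT-LSK. In GMP it went from 4.02, 5.60 and 3.48 CPM to 1.98, 2.22 and 1.57 CPM. Its interaction was 4.44 (SE 0.40, adjusted p = 8.98e-06). Among the T and NK promoters, Lck rose in GMP, with an interaction of 1.14 (SE 0.36), and Cd7 fell in GMP more than in LSK, with an interaction of -1.0 (SE 0.31). The Lck call was lost without URE-GMP replicate 1 or 3, any 1 of the URE-LSK libraries, WT-GMP replicate 2, or WT-LSK replicate 1 or 3, at 0.93 to 1.24, and with loess (1.0, adjusted p = 0.0706) and GC content offsets (1.02, adjusted p = 0.0644). The Cd7 call was lost without any 1 of 9 libraries, all but URE-GMP replicate 3, URE-LSK replicate 2 and WT-GMP replicate 2, at -1.0 to -0.74, and with RLE size factors (-0.99), TMM on promoter regions (-0.95) and DESeq2 (-0.99). It was also lost among regions with a mean of at least 2 CPM (-0.92). Replicate blocks over all libraries or within genotype lost it as well (-0.99 each).

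Erythroid genes had 4 positive (3.05%) and 7 negative calls (5.34%) of 131 regions, with a median interaction of -0.22. Megakaryocyte genes had 18 (9.28%) and 14 (7.22%) of 194, with a median of -0.14. The majority of megakaryocyte calls turned negative with loess and GC content offsets. A region in an intron of Mindy4, 40814 bp from a start of the water channel gene Aqp1 (chr6:55294501-55295618), rose from 9.13, 8.89 and 13.6 CPM to 41.4, 32.6 and 30.0 CPM in LSK. The GMP libraries overlapped there, with 3.41 ± 1.03 CPM in WT and 3.73 ± 0.998 CPM in URE (SD, n = 3). The interaction was -1.59 (SE 0.34, adjusted p = 0.00451). The Aqp1 promoter and the promoter of Itga2b, the platelet integrin CD41, had interactions of -1.04 (SE 0.32) and -1.11 (SE 0.31). In both, WT-GMP replicate 3 was above the other WT-GMP libraries, at 19.9 against 8.33 and 10.3 CPM for Aqp1 and at 26.9 against 14.8 and 14.1 CPM for Itga2b. Without that library the interactions were -0.50 and -0.66, and neither was called. The Aqp1 promoter call was also lost without URE-GMP replicate 1 or 2 or any 1 library of URE-LSK or WT-LSK, at -1.07 to -0.92, and with TMM on promoter regions (-0.99), and the Itga2b call without URE-GMP replicate 1 or 2, URE-LSK replicate 1, or WT-LSK replicate 1 or 2, at -1.08 to -0.95. Among regions with a mean of at least 2 CPM the Aqp1 promoter lost the call (-0.96). Replicate blocks over all libraries (-1.0) or within genotype (-0.95) lost it too. The called megakaryocyte region with the smallest p was the Cd9 region already described, 35154 bp from a start of Vwf.

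Mast cell and basophil genes had 15 positive (12.4%) and 7 negative calls (5.79%) of 121 regions. Dendritic cell and MHC class II genes had 14 (7.65%) and 8 (4.37%) of 183, close to the background. With loess and GC content offsets the counts were 12 and 11, and 13 and 11, for mast cell and basophil genes, and 10 and 15, and 10 and 11, for dendritic cell and MHC class II genes. Upstream of Il1rl1, the interleukin-33 receptor (chr1:40409923-40410358), LSK fell from 7.79, 6.77 and 7.68 CPM to 0.476, 0.558 and 0.555 CPM and GMP from 10.4, 13 and 12.6 CPM to 8.07, 9.35 and 8.24 CPM. The interaction was 3.31 (SE 0.24, adjusted p = 2.78e-06). The promoter of Hdc, the enzyme that makes histamine, had an interaction of 2.49 (SE 0.35, adjusted p = 2.81e-04), with effects of -3.11 in LSK and -0.63 in GMP. It was the only 1 called of 5 mast cell and basophil promoters, whose median effect was 0.09 in LSK and in GMP. Mcpt8 had effects of 2.13 and 1.56 and Cpa3 of 1.15 and 0.66, with interactions of -0.57 and -0.48 that were not called. Near H2-Aa, an MHC class II chain (chr17:34293471-34293962), LSK fell from 24.4, 25.6 and 19.7 CPM to 0.50, 1.06 and 0.555 CPM and GMP from 7.20, 7.24 and 6.85 CPM to 1.33, 1.84 and 0.775 CPM. The wild-type level was higher in LSK than in GMP there, and the interaction was 2.65 (SE 0.39, adjusted p = 3.68e-04).

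**Figure D4:**
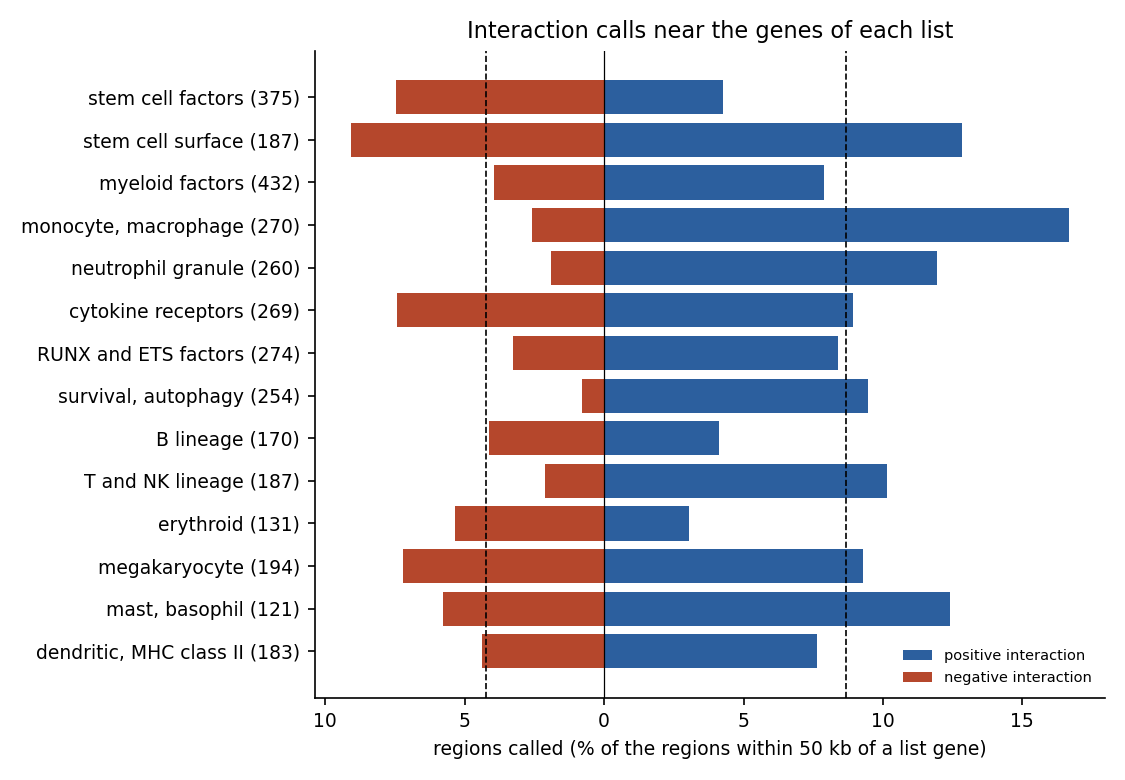
Bars show the share of regions within 50 kb of a start of a list gene (number of regions in brackets) with a called interaction, positive to the right and negative to the left, and dashed lines the shares of all regions near protein-coding starts (8.69% and 4.25%). Monocyte and macrophage genes reach 16.7% positive, and stem cell factors 7.47% negative against 4.27% positive.

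The motifs held by the central 300 bases, a feature not used to form the classes, were then counted in each class. The PU.1 motif was in 26.0% of regions that closed in URE-LSK with a weaker response in GMP, as at Iqgap3, and in 19.6% of opposite regions higher in GMP, as at Lrrfip1. It was in 11.9% of regions that closed mainly in URE-GMP and in 3.52% and 3.40% of the classes that opened in LSK and in GMP, against 8.70% of all regions. The C/EBP motif was in 29.4% of regions that opened mainly in URE-GMP and in 27.9% of opposite regions higher in GMP, against 16.4% of all regions and 7.95% of opposite regions lower in GMP. Its share was also above that of all regions, at 21.3%, where URE-LSK closed with a weaker response in GMP. It was 13.9% where URE-LSK opened and 11.1% where mainly URE-GMP closed. The RUNX motif was in 31.8% and the GATA motif (AGATAA, on either strand) in 27.1% of regions that opened in URE-LSK with a weaker response in GMP, against 14.4% and 12.9% of all regions. In opposite regions lower in GMP these shares were 24.0% and 25.4%, and in regions that closed mainly in URE-GMP 20.3% and 20.5%. They were 12.6% and 11.7% in regions that closed in URE-LSK with a weaker response in GMP. Where mainly URE-GMP opened they were 16.5% and 8.84%, and in opposite regions higher in GMP 16.3% and 10.4%. The AP-1 motif (TGANTCA) was in 21.6% of regions that opened in URE-LSK, against 12.1% of all regions, and the IRF motif in 15% of regions that closed mainly in URE-GMP, against 10.8%. A motif of other ETS factors (CCGGAAGT) was in 0.313% to 0.883% of the 6 classes, against 1.22% of all regions. The classes held 2.20% to 5.43% promoter regions, against 13.8% of all regions, and motif shares were not matched for this. Under the scaling alternatives the PU.1 share of the weaker class lower in LSK ranged from 25.6% to 27.1%, and that of opposite regions higher in GMP from 14.6% to 22.7%. The C/EBP share ranged from 28.9% to 29.7% where mainly URE-GMP opened and from 26.9% to 32.7% in opposite regions higher in GMP. Which of these classes held it most often thus depended on the scaling. These shares are descriptions, and the differences between classes were not tested.

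**Figure D5:**
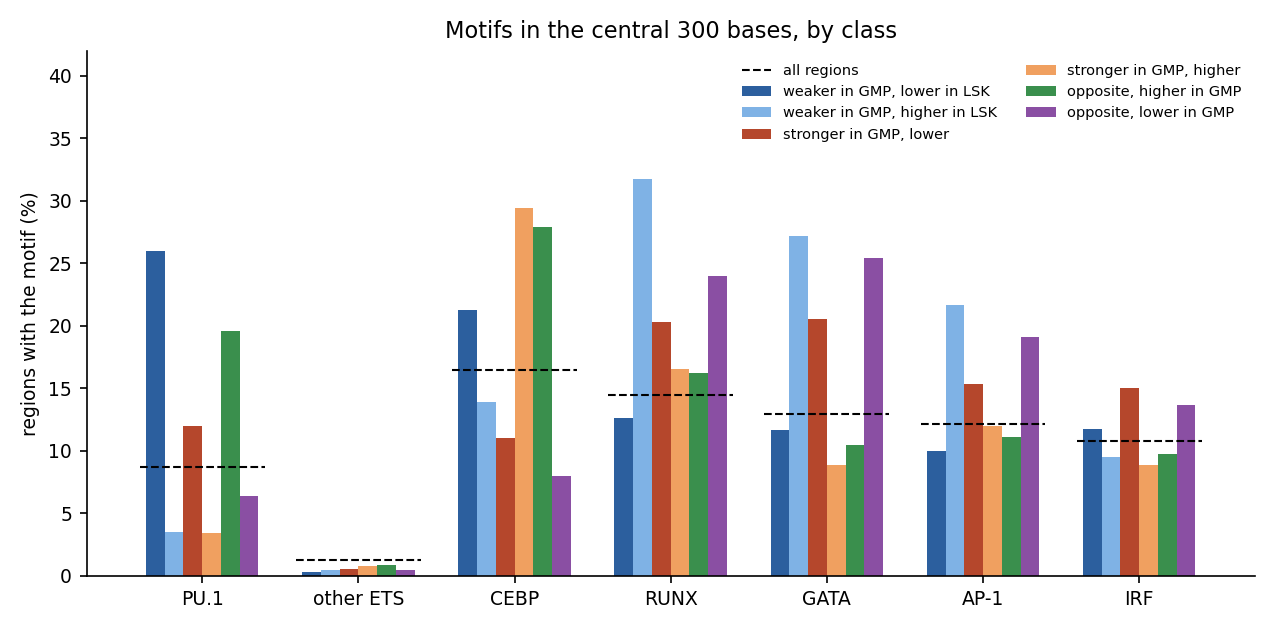
Bars show the share of regions of each class (%) with a motif in the central 300 bases, and dashed lines the share of all regions. The PU.1 motif is most frequent where LSK closed more than GMP (26.0%) and the RUNX motif where LSK opened (31.8%). The C/EBP motif is most frequent in the classes higher in URE-GMP (29.4% in the stronger and 27.9% in the opposite class).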

How the data were processed

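Open chromatin of mouse bone marrow LSK and GMP was profiled in 12 libraries with the OmniATAC version of ATAC-seq, and groups were taken from GEO's labels. The table deposited by the authors holds unnormalized counts for each region in each library. According to the submitters' processing notes, the tools were cutadapt, Bowtie2, Genrich, bedtools and featureCounts and the genome GRCm38. Per the study's methods, duplicates were removed, peaks were called per group and merged. The sources used here do not give the unit counted, fragments or read ends. Region starts were read as 0-based and are given 1-based.

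A quasi-likelihood model was fitted with edgeR 4.0.16 (R 4.3.3) on all 121336 regions with TMM scaling and 1 coefficient per group. The low-count filter removed no region. The test was two-sided, p-values were adjusted by Benjamini-Hochberg over all regions, and calls needed an adjusted p under 0.05 and a log2 interaction over 1 in size. The thresholds follow the study, whose tool DESeq2 (1.42.0) was an alternative. The effects in LSK and GMP share no library. CPM values use TMM-scaled library sizes, and SD and n refer to 3 libraries. Total counts of 23072701 to 62204826 set the precision, and SE and SD cover the spread between these libraries only.

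Regions were assigned to protein-coding start sites of GENCODE M21, promoters being regions within 500 bp. Motifs were counted in the central 300 bases of GRCm38. Named regions were those within 20 kb of a Spi1 start, the 3 with the smallest interaction p per class (mean of at least 5 CPM in a group, start site within 50 kb, 1 per nearest gene), the called region with the smallest p per list, the nearest genes with most regions per class, and promoters of list genes by count. The members and lists were chosen with earlier results of these data known. On simulated data with known changes, the fit was checked for their recovery. Alternatives were library scaling (RLE, library size, TMM on promoters, loess and GC content offsets), an abundance filter, DESeq2, a test against the fold threshold (glmTreat), replicate blocks, an adjusted p under 0.01, other class definitions and windows, and leaving out each library.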

Additional observations from a re-analysis of the deposited data

Results flagged for a closer look

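The 57 named regions with a called interaction are those whose genotype effect differed between LSK and GMP by the test of the difference itself (edgeR's quasi-likelihood test of the interaction, all 12 libraries). Their log2 interactions were as follows, and no explanation was tested. With 3 libraries per group, Dixon's test for an outlying sample was not applied.

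Among regions that closed in URE-LSK with a weaker response in GMP, interactions were 4.41 at Olfr1394, 3.71 at Iqgap3, 3.53 at Foxp1, 2.46 at Cebpd, 3.03 at Ccr2, 2.36 at Tnfrsf1a, 4.44 near Cd79a, 2.17 at Notch1, 3.31 at Il1rl1, 2.65 near H2-Aa, and 1.34 and 2.13 at the Spi1 intron and promoter. Promoters of the same class had 1.16 at Thy1, 1.30 at Cx3cr1, 2.32 at Itgam, 2.02 at Fcgr1, 3.34 at Mpeg1, 1.34 at Lyz2, 1.09 at F13a1, 1.84 at Ly6c2, 2.60 at Csf1r, 1.84 at Fcer1g, 2.06 at Tyrobp, 2.03 at S100a8, 1.96 at Mmp8, 1.83 at Csf2rb2, 1.21 at Bcl2a1b and 2.49 at Hdc. Among regions that opened in URE-LSK with a weaker response in GMP, interactions were -1.83 at Fbxo31, -2.29 at Alg12, -3.12 at Slc38a2, -1.59 near Aqp1 and -1.11 at the Itga2b promoter.

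Where GMP closed more, they were -2.22 at Rtn1, -2.78 at A230072I06Rik, -2.21 at Sec31b, and -1.07, -1.83, -1.0 and -1.04 at the promoters of Hoxa10, Tek, Cd7 and Aqp1. Where GMP opened more, they were 1.70 at Fam83d, 3.0 at Acox2, 3.05 at Celf2, and 1.03 and 1.14 at the promoters of Cebpe and Lck. Opposite responses had 3.13 at Lrrfip1, 3.34 at Hpcal1, 3.13 at Rab44, 2.05 at Fcnb, 1.82 at Ets1 and 2.84 at Bcl2l11 where GMP opened, and -2.59 at Cd9, -2.82 at Cpeb2, -1.46 at D6Ertd527e, -1.19 near Nfe2, and -1.02 and -1.17 at the promoters of Hoxa9 and Il10ra where GMP closed.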

How the results depend on the processing

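None of the named regions with a call changed the sign of its interaction under the alternatives run. Setting each named region against each alternative, the side of the threshold was the same in 1804 cases, a call was lost in 107 and gained in 10. TMM on promoter regions gave 417 opposite regions lower in GMP. Loess offsets against abundance gave 9306 negative calls, 4524 weaker regions higher in LSK and 1014 opposite regions lower in GMP. GC content offsets gave 9237, 4642 and 1177 of these, and a PU.1 motif share of 27.1% in the weaker class lower in LSK. A mean of at least 2 CPM gave 10872 calls, 3258 negative, 1005 weaker higher in LSK, 3542 stronger (1931 lower, 1611 higher), 741 opposite (294 lower) and a PU.1 share of 24.6%, with fewer regions tested. With the whole region searched, the PU.1 share was 28.1%.

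The test against the fold threshold (glmTreat), which asks for more than the call, gave 3703 calls, 2948 positive and 755 negative, 2583 weaker (2355 lower, 228 higher), 670 stronger (326 lower, 344 higher), 450 opposite (201 lower, 249 higher) and 94 near list genes. Calls at an adjusted p under 0.01 numbered 8524, 5841 positive and 2683 negative, 5095 weaker (4273 lower, 822 higher), 2403 stronger (1336 lower, 1067 higher) and 221 near list genes. Named regions that lost the call under glmTreat were the Spi1 intron and the regions near Nfe2 and Aqp1. The promoters of Hoxa9, Hoxa10, Thy1, Tek, Cebpe, Cx3cr1, Lyz2, F13a1, Ly6c2, Fcer1g, Il10ra, Bcl2a1b, Lck, Cd7, Aqp1 and Itga2b also lost it. At an adjusted p under 0.01 the promoters of Tek, Cebpe, F13a1, Bcl2a1b, Lck, Cd7, Aqp1 and Itga2b lost it. Class sizes depended on the definition. With effects judged by sign only, there were 1292 weaker higher in LSK, 3866 stronger (1937 lower, 1929 higher) and 5528 opposite (2873 lower, 2655 higher), and with effects needing adjusted p and fold, 194 opposite (107 lower, 87 higher). A window of 5 kb gave 83 calls near list genes. DESeq2 gave 18851 calls.

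Leaving out each library in turn gave 12478 to 18345 calls, 8028 to 11798 positive and 3979 to 6547 negative. It gave 7060 to 11153 weaker (5500 to 8470 lower, 1402 to 2683 higher), 4182 to 6464 stronger (2126 to 3323 lower, 2027 to 3491 higher) and 829 to 1266 opposite (336 to 724 lower, 398 to 712 higher). Near list genes it gave 321 to 473 calls, and the PU.1 share was 25.2% to 26.3%.

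Replicate numbers are shared between groups, and it was checked whether libraries with the same number deviated together. The correlations of deviations were 0.181, 0.191 and 0.207 between WT-LSK and WT-GMP and 0.0616, 0.273 and 0.113 between URE-LSK and URE-GMP. They did not all exceed 0.1, and the numbers were not taken as pairs. Across genotypes, where the same number cannot be the same animal, they were 0.0997, 0.205 and 0.349 between WT-GMP and URE-GMP. Between WT-LSK and URE-LSK they were 0.102, 0.0625 and -0.0616. With a replicate block over all libraries there were 18807 calls, and with a replicate block within genotype 20170. With the block within genotype and GC content offsets there were 10988 negative calls, 5529 weaker higher in LSK, 2247 opposite and 1492 opposite lower in GMP. That setting also lost the calls at the promoters of Cebpe (0.98), F13a1 (0.85), Bcl2a1b (0.98) and Lck (0.98). The causes of these differences were not tested. Levels under 3 counts, which is 0.0520 to 0.126 CPM by library, could not be told from 0.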

Other observations

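Of 10552 regions with the PU.1 motif in their central 300 bases, 24.8% had a called interaction, against 14.0% of all regions, and 18.1% of them closed in URE-LSK with a weaker response in GMP. The median effect of these regions was -1.45 in LSK and -1.11 in GMP, so that both cell types lost accessibility. Where the C/EBP motif was also present (1526 regions, as at Iqgap3), the median was -1.53 in LSK and -0.78 in GMP, and 26.5% were called positive. Without it (9026 regions), the medians were -1.44 and -1.15, and 19.0% were called positive. With the RUNX motif (1323 regions), the medians were -0.92 and -0.87, and 17.3% were called positive. With the GATA motif (1376 regions), 7.12% were called negative, against 4.29% without it. These shares are descriptions of regions that share libraries and base composition, and their differences were not tested.

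Of 54032 regions with none of the 7 searched motifs, 10.9% were called. Regions with the motif of other ETS factors (1479 regions) had medians of 0.22 in LSK and 0.22 in GMP, and 5.48% of them were called. Promoter regions, of which 3.90% were called, were not set apart in these shares.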
